A study of Mus musculus with 3 samples.

Results

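The respiratory chain of the inner mitochondrial membrane passes electrons from NADH and succinate to oxygen and uses the proton gradient this builds to make ATP. Complex I (NADH dehydrogenase) and complex II (succinate dehydrogenase) feed electrons in, complex III (cytochrome bc1) and complex IV (cytochrome c oxidase) carry them to oxygen, and complex V is the ATP synthase. A few core subunits are encoded by mitochondrial DNA and all others by nuclear genes, and several complex IV subunits exist as a widely used isoform and a tissue-restricted one. Contractile smooth muscle cells (SMCs), which make up most of the aortic media, are a cell type in which mitochondrial respiration has been linked to the contractile state.

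The nuclear-encoded subunits were taken as all features whose symbol starts with Ndufa, Ndufb, Ndufc, Ndufs, Ndufv, Sdh, Uqcr, Cox4, Cox5, Cox6, Cox7, Cox8 or Atp5, without Ndufaf genes and without names ending in -ps or starting with Gm. This gave 89 of 32285 features, of which 36 belong to complex I, 4 to complex II, 8 to complex III, 19 to complex IV (Ndufa4 and Ndufa4l2, now known as complex IV subunits, included) and 17 to complex V. A further 4 are Sdhaf assembly factors of complex II, and Cox7a2l helps to join complexes III and IV. The tissue was the ascending aorta of male C57BL/6J mice at P45, measured by droplet RNA-seq in 3 libraries. The WT library pooled 3 mice, the mgR library 3 mice homozygous for the hypomorphic mgR allele of Fbn1, the fibrillin-1 gene mutated in Marfan syndrome, and the mgR-LOS library 4 Fbn1 mgR/mgR mice that drank the angiotensin receptor blocker losartan at 0.6 g/L from P16. All cells of a condition therefore came from 1 pool, and the labels do not say whether the mgR mice drank vehicle.

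Unique molecular identifiers (UMIs) were summed over barcodes gated by marker genes. SMCs were gated on Myh11, Acta2, Tagln, Cnn1, Myl9 and Tpm2, fibroblasts on Dcn, Dpt, Serpinf1, Clec3b, Lum and Pdgfra, endothelial cells (ECs) on 9 genes such as Pecam1, Cdh5 and Cldn5, and macrophages on 9 genes such as C1qa, Csf1r and Adgre1. In each gate and library all markers of its own panel were detected. The WT, mgR and mgR-LOS libraries gave 3506, 2955 and 7526 SMC barcodes, 1270, 2227 and 2883 fibroblast barcodes, 74, 184 and 105 EC barcodes, and 87, 911 and 525 macrophage barcodes. The resulting sums held between 548697 UMIs (WT ECs) and 67686929 UMIs (mgR-LOS SMCs), so values in ECs and in WT macrophages are the least precise. The mgR-LOS library was shallower, with a median of 8334 UMIs per passing barcode against 13636 in WT and 12410.5 in mgR. Pairs of libraries shared 22 to 46 barcode sequences. Fbn1 served as a check of the labels and was at 251 CPM (UMI counts scaled to a common total per sum) in WT SMCs, against 77.7 in mgR and 67.3 in mgR-LOS.

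The genes differ in the letters upstream of their start, and 4 promoters are shown because they belong to pairs of a widely used complex IV gene and a restricted paralog that are compared later. The windows hold 250 bases before and 50 after the RefSeq start on GRCm38.p6, written along the gene. Capitals mark matches on either strand to CCGGAAG, a core motif of ETS factors such as GABPA.
Cox8a, chr19:7217567-7217866, minus strand: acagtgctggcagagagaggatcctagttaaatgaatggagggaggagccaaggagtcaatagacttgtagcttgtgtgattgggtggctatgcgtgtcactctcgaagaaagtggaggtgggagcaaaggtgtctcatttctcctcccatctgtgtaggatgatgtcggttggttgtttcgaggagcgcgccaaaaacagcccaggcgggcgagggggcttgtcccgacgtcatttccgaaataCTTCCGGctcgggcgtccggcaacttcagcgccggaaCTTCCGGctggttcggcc
Cox8b, chr7:140900397-140900696, minus strand: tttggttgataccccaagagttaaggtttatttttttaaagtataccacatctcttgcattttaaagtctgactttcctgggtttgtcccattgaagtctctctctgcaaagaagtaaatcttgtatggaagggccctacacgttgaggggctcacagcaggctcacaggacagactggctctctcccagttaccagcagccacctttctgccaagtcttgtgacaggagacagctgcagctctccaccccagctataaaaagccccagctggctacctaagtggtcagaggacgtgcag
Cox6b1, chr7:30626065-30626364, minus strand: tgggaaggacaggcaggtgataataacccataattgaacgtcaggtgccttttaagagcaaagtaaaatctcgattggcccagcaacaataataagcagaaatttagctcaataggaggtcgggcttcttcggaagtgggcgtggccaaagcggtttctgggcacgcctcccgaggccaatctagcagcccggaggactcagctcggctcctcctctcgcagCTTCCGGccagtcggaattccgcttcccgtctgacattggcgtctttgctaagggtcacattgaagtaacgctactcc
Cox6b2, chr7:4753045-4753344, minus strand: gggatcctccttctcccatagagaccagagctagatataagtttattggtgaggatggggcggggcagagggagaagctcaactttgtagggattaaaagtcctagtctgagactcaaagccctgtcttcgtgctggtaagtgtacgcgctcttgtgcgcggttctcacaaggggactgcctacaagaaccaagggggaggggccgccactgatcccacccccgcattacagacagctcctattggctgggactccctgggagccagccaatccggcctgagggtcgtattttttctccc
The windows of Cox8a and Cox6b1 held the ETS letters, and those of Cox8b and Cox6b2 did not. Of the 89 members, 72 had a window in the RefSeq table, 77 windows in all, and 17 had none, Ndufa4l2, Cox4i1 and Cox4i2 among them. The ETS letters were in 26.0% of these windows against 8.86% of all 32851 windows, the motif of NRF1 in 6.49% against 0.971%, and AAGATGGC, a core motif of YY1, in 11.7% against 2.75%. The GC box GGGCGG was in 42.9% against 35.7%, and ACGTG, the core of the hypoxia response element, in 23.4% against 19.6%. A match describes these letters only and is not a measured binding site.

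The members took a larger share of UMIs in SMCs and ECs than in fibroblasts and macrophages. Together they made up 2.44% of all UMIs in WT SMCs, 2.28% in mgR and 2.22% in mgR-LOS. In fibroblasts the shares were 1.90%, 1.80% and 1.62%, and in macrophages 1.68%, 1.83% and 1.55%. ECs held 2.26%, 2.29% and 1.99%, so that their share overlapped that of SMCs across the libraries, whereas fibroblasts and macrophages lay below SMCs in every library. The exact 95% Poisson interval, which covers counting error only here as elsewhere, was widest in WT ECs, at 2.22% to 2.30%. Complex I supplied 0.8% of the UMIs in WT SMCs, complex IV 0.673%, complex V 0.650%, complex III 0.249% and complex II 0.0330%. A share is relative to all other RNA of the same cells, and less RNA of these genes per cell cannot be told apart from more RNA of other genes.

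**Figure D1:**
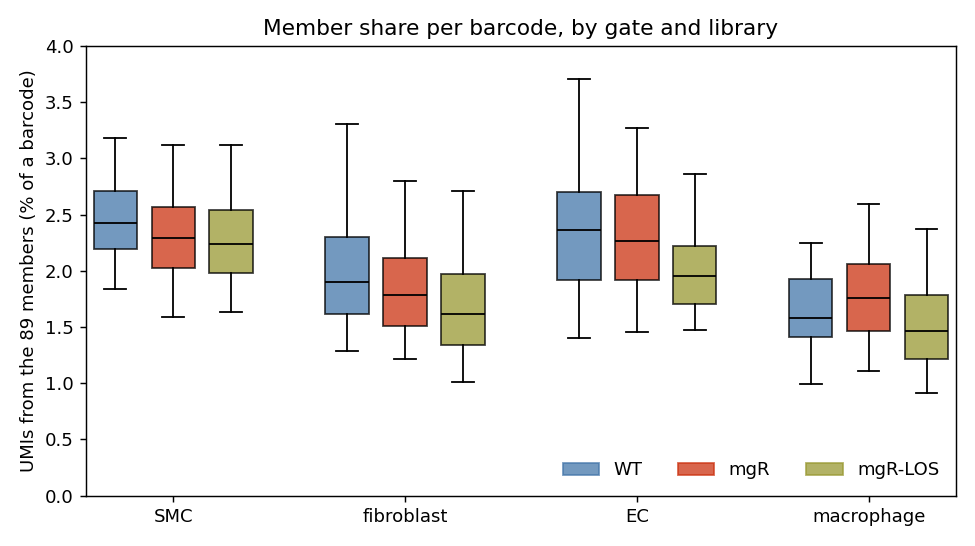
Percentage of a barcode's UMIs that came from the 89 members, by gate (x axis) and library (color); boxes give the quartiles with the median, whiskers the 5th and 95th percentiles over barcodes. The medians in SMCs were 2.42%, 2.29% and 2.24% in WT, mgR and mgR-LOS, above the medians of fibroblasts and macrophages in every library.

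The spread between barcodes was larger than the difference between libraries. In WT SMCs the quartiles of the member share were 2.19% and 2.71%, and in WT fibroblasts 1.62% and 2.30%. The member share varied with the mitochondrial share of a barcode. In WT SMCs its median was 2.26% over the 489 barcodes with 2.5% to 5% mitochondrial UMIs, 2.43% over 2390 with 5% to 7.5%, and 2.53% over 598 with 7.5% or more. In mgR-LOS SMCs the same bins gave 2.15%, 2.27% and 2.39%, but 168 barcodes below 2.5% had the highest median, 2.64%. WT fibroblasts with 2.5% to 5% and with 5% to 7.5% were at 1.87% and 2.01%, lower than SMCs of the same bins, and the 20 with 7.5% or more were at 1.67%. Below 2.5% the medians were 2.19% over 29 SMC and 2.18% over 200 fibroblast barcodes of WT.

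Which subunits differed between cell classes was tested on the 12 sums (4 classes in 3 libraries) with edgeR's quasi-likelihood test, with the library as a term and TMM scaling. These p-values measure the spread between 3 pools of differing genotype and treatment, not between mice. Of the 89 members 87 were tested, without Cox7b2 and Cox8c, testis-type isoforms that had at most 3 UMIs in any sum. Between fibroblasts and SMCs 76 members were lower in fibroblasts and 4 were higher. Over all 14907 genes tested, 25.8% were lower and 27.6% higher. The median log2 difference of the members was -0.59, and that of all genes -0.00. Between macrophages and SMCs 60 members were lower in macrophages and 3 were higher, where 36.4% of all genes were lower and 30.6% higher, and the medians were -0.52 for the members and -0.17 for all genes.

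For ECs the direction depended on the scaling. With TMM factors 64 members were lower in ECs than in SMCs and 2 were higher, against 25.5% and 19.1% of all genes, with medians of -0.54 and -0.15. Computed on plain shares of all UMIs, a scale added after these values had been seen, 22 members were lower and 14 higher. Over all 14907 genes, 1934 were lower and 4972 higher in ECs on that scale. The medians were -0.06 for the members and 0.33 for all genes. The members called lower on both scales numbered 22 in ECs, 57 in fibroblasts and 57 in macrophages, and none was called lower on one scale and higher on the other in any class. On both scales the members' median lay below that of all genes in all 3 classes. As plain shares, 69 of the 87 members were lower and 8 higher in fibroblasts than in SMCs in all 3 libraries. The counts were 65 and 9 in macrophages and 30 and 19 in ECs, and were not made for all genes. Called on plain shares were 57 members lower and 5 higher in fibroblasts, and 57 and 5 in macrophages. Of all 14907 genes, 2418 were called lower and 5553 higher in fibroblasts on that scale, and 5181 and 4770 in macrophages.

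**Figure D2:**
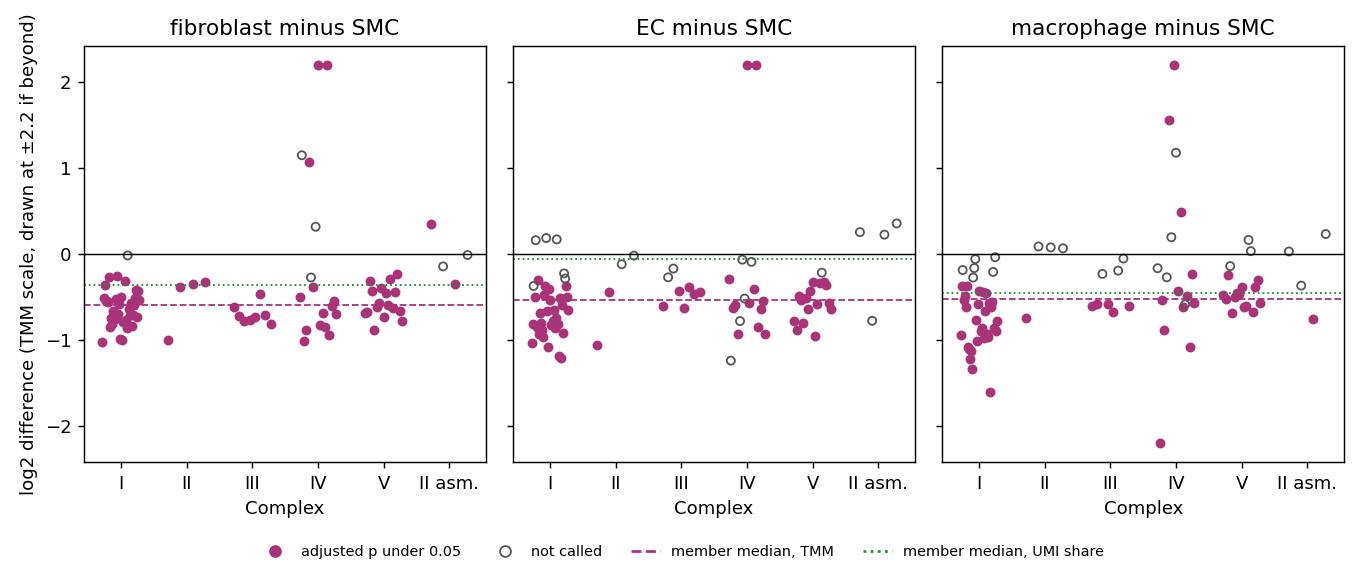
Log2 difference of each tested member (points) between a class and SMCs on the TMM scale, by complex (II asm., the Sdhaf assembly factors; Cox7a2l not drawn); filled points passed an adjusted p of 0.05 in edgeR, the dashed line is the member median on this scale and the dotted line the member median on plain UMI shares. Nearly all filled points lie below 0, apart from a few complex IV members and Sdhaf4 in fibroblasts, and the dotted line for ECs lies at -0.06.

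Complex I is the entry point for NADH. Of its 36 members 35, all but Ndufb4, were lower in fibroblasts than in SMCs, with a median log2 difference of -0.62. In ECs and in macrophages 30 of 36 were lower, with medians of -0.66 and -0.64, and on plain shares 27, 15 and 29 were lower in fibroblasts, ECs and macrophages. Ndufb3, an accessory subunit, was at 283, 248 and 212 CPM in WT, mgR and mgR-LOS SMCs and at 168, 147 and 116 CPM in fibroblasts. Its groups did not overlap, and the log2 difference was -1.02 ± 0.10 (SE; adjusted p = 2.35e-06, edgeR). Ndufa11, an accessory membrane subunit, was at 293, 365 and 291 CPM in SMCs, at 175, 212 and 182 in ECs and at 109, 119 and 97.7 in macrophages. Among members at 50 CPM or more in either class its log2 difference was the lowest in macrophages (-1.61 ± 0.11, adjusted p = 2.22e-08, edgeR) and in ECs (-1.21 ± 0.11, adjusted p = 1.09e-06). Next in ECs were Ndufv3 (-1.19) and Ndufa13 (-1.08), and in macrophages Ndufb2 (-1.34) and Ndufs5 (-1.23). In fibroblasts Ndufa12 (-1.0) stood beside Ndufb3 and Cox6a1 (-1.01).

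Most of the catalytic core of complex I was lower as well, in most cases by less than the median of the complex. Exceptions with TMM factors were Ndufv2 in fibroblasts (-0.71), Ndufs1 (-0.81) and Ndufs3 (-0.85) in ECs, and Ndufv1 in macrophages. Ndufs1, which carries iron-sulfur clusters, was at 36.0, 31.5 and 32.4 CPM in SMCs and at 26.7, 28 and 27.8 in fibroblasts, a log2 difference of -0.51 ± 0.12 (adjusted p = 0.00268, edgeR). Ndufv1, which binds NADH, was at 63.9, 58.0 and 69.7 CPM in SMCs and at 40.8, 35.9 and 34.6 in macrophages, with log2 differences of -0.86 in macrophages, -0.41 in fibroblasts and -0.29 in ECs, the last not called (adjusted p = 0.0618, edgeR). With TMM factors Ndufs3, Ndufs7 and Ndufv2 were lower in all 3 classes, the macrophage call of Ndufs7 being lost without the mgR-LOS library (adjusted p = 0.0649, edgeR). Ndufs8 was called in fibroblasts (-0.51), a call lost without the mgR-LOS library (adjusted p = 0.0555, edgeR). On plain shares Ndufs7 and Ndufv2 were not called in ECs, and Ndufs1 was not called in any class.

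Complex II oxidizes succinate and also belongs to the citric acid cycle. With TMM factors its 4 subunits were lower in fibroblasts, 2 were lower in ECs and 1, Sdhc, in macrophages. On plain shares the counts were 1, 1 and 1, with 2 higher in ECs. Without the mgR-LOS library the fibroblast calls of Sdha, Sdhb and Sdhd were lost, with an adjusted p of 0.0925, 0.0904 and 0.0773 in edgeR. Sdha was also lost without the WT (0.072) or the mgR library (0.0604), and Sdhd without the mgR library (0.0871), adjusted p in edgeR. Sdhc, a membrane anchor, was at 105, 96.6 and 103 CPM in SMCs, at 59.7, 61.4 and 59.0 in fibroblasts and at 51.6, 71.5 and 64.4 in macrophages. Sdha, the flavoprotein, was at 82.0, 75.5 and 81.7 CPM in SMCs and at 96.1, 90.3 and 79.3 in macrophages, values that overlapped, with a log2 difference of 0.07 ± 0.11 (adjusted p = 0.607, edgeR). Sdhb and Sdhd differed from SMCs by 0.09 and 0.08 in macrophages and were not called. Of the Sdhaf factors, Sdhaf4 was higher in fibroblasts, at 51.9, 46.8 and 38.5 CPM against 33.7, 31.3 and 26.1 in SMCs (0.35 ± 0.10, adjusted p = 0.0104, edgeR). Without the mgR or the mgR-LOS library that call was lost, with an adjusted p of 0.0562 and 0.0961 in edgeR.

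All 8 members of complex III were lower in fibroblasts, 6 in ECs and 5 in macrophages, with medians of -0.73, -0.44 and -0.58. On plain shares the counts were 8, 0 and 5. Uqcrfs1, the Rieske iron-sulfur protein, was at 79.7, 76.2 and 79.1 CPM in SMCs, at 55.0, 56.2 and 57.6 in fibroblasts and at 103, 70.5 and 72.5 in macrophages. The fibroblast values lay below those of SMCs in every library, and those of macrophages overlapped them. Uqcrc1 and Uqcrc2, the core proteins, differed from SMCs by -0.79 and -0.72 in fibroblasts and were called there. In ECs neither was called (-0.17 and -0.27).

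Complex V was lower in fibroblasts for all 17 members, in ECs for 16 and in macrophages for 14, and on plain shares for 11, 4 and 13. The catalytic subunit Atp5b was at 374, 354 and 402 CPM in SMCs, at 265, 267 and 268 in fibroblasts, at 416, 432 and 402 in ECs and at 297, 309 and 302 in macrophages. In ECs its plain level was thus no lower than in SMCs, and its log2 difference was -0.33 with TMM factors and 0.15 on plain shares, and the TMM call was lost without the mgR-LOS library (adjusted p = 0.176, edgeR). Atp5a1 and Atp5c1, also in the catalytic head, were lower in all 3 classes, by -0.66 and -0.69 in fibroblasts with TMM factors. The macrophage call of Atp5a1 (-0.30) was lost without the mgR-LOS library (adjusted p = 0.129, edgeR) and with a mitochondrial limit of 5% (adjusted p = 0.187), and on plain shares its EC value was -0.09 (adjusted p = 0.433). Atp5g1, Atp5g2 and Atp5g3 encode the same mature c-ring protein. Atp5g1 and Atp5g3 were lower in all 3 classes (-0.46 and -0.68 in fibroblasts, -0.96 and -0.88 in ECs, -0.62 and -0.52 in macrophages), whereas Atp5g2 was lower in fibroblasts (-0.62) and was not called in ECs (-0.22) or in macrophages (0.03).

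Complex IV held 11 members that were lower and 3 that were higher in fibroblasts, 10 and 2 in ECs, and 9 and 3 in macrophages, out of 17 tested with TMM factors. On plain shares these counts were 10 and 4, 2 and 4, and 8 and 4. In ECs more were higher than lower on that scale, as was so for all genes (4972 higher and 1934 lower of 14907). The widely used subunits followed the other complexes. Cox4i1 was at 1014, 929 and 987 CPM in SMCs and at 674, 657 and 608 in fibroblasts (log2 difference -0.83 ± 0.08, adjusted p = 1.85e-06, edgeR). Cox6a1 was at 402, 372 and 387 CPM in SMCs and at 231, 225 and 220 in fibroblasts. Cox7a2, Cox7b, Cox8a and Ndufa4 were lower in all 3 classes with TMM factors. The macrophage call of Cox8a (-0.24, adjusted p = 0.041, edgeR) was lost with RLE factors (-0.10, adjusted p = 0.301), on plain shares (-0.16, adjusted p = 0.116) and without the WT (adjusted p = 0.142) or the mgR-LOS library (adjusted p = 0.227). The EC call of Cox7a2 was lost without the mgR (adjusted p = 0.0568, edgeR) or the mgR-LOS library (adjusted p = 0.0836). Cox5a departed from this in macrophages, at 253, 288 and 260 CPM against 188, 188 and 172 in SMCs, and was higher there by 0.48 ± 0.10 (adjusted p = 0.000608, edgeR). It was lower in fibroblasts (-0.69) and not called in ECs (-0.09). Cox6b1 was not called in macrophages with TMM factors (0.19, adjusted p = 0.0759, edgeR) and was higher on plain shares (0.27, adjusted p = 0.012).

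With TMM factors 7 members were higher in any class, of which 5 were restricted isoforms of complex IV and the others Sdhaf4 and Cox5a. On plain shares 18 were higher in any class, and the 14 in ECs were Ndufa8, Ndufb4, Ndufc2, Sdha, Sdhd, Sdhaf1, Sdhaf2, Sdhaf4, Cox5a, Cox6b1, Cox7a2l and Atp5g2 beside Cox8b and Ndufa4l2. Ndufa4l2 (ENSMUSG00000040280, chromosome 10 from 127514967 to 127517154 on GRCm38), a hypoxia-inducible paralog of Ndufa4, was at 109, 76.1 and 75 CPM in WT, mgR and mgR-LOS fibroblasts. In SMCs it was at 0.537, 1.08 and 1.61 CPM, so the groups lay far apart, with a log2 difference of 6.15 ± 0.54 (adjusted p = 3.47e-05, edgeR). Ndufa4 (ENSMUSG00000029632, chromosome 6 from 11900292 to 11907497) was at 664, 644 and 504 CPM in SMCs and at 433, 420 and 310 in fibroblasts, lower by -0.88 ± 0.08 (adjusted p = 1.29e-06, edgeR). Cox4i2 (ENSMUSG00000009876, chromosome 2 from 152754173 to 152765037), an oxygen-sensitive isoform of Cox4i1, was at 98.0, 41.8 and 42.8 CPM in fibroblasts and at 15.8, 23.1 and 27.6 in SMCs. It was higher in fibroblasts in every library, but the call was not reached (1.15 ± 0.48, adjusted p = 0.0798, edgeR). The call was reached without the mgR-LOS library (1.5, adjusted p = 0.0305, edgeR), after thinning to 2000 UMIs (0.94, adjusted p = 0.0295) and on plain shares (1.38, adjusted p = 0.0439). In macrophages Cox4i2 was at 2.40, 0.998 and 0.812 CPM and was lower than in SMCs (-4.36 ± 0.94, adjusted p = 0.0041, edgeR). Without the mgR library the adjusted p there was 0.0711.

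Cox8b, an isoform of heart and brown fat, was at 10.6, 4.45 and 5.85 CPM in fibroblasts and at 0.417, 0.065 and 0.133 in SMCs, which rested on 21, 3 and 9 UMIs (4.93 ± 0.43, adjusted p = 5.4e-07, edgeR). Its widely used paralog Cox8a was at 625, 604 and 494 CPM in fibroblasts. Cox6b2, a testis-type isoform, was at 17.0, 31.2 and 20.04 CPM in fibroblasts against 7.34, 10.3 and 9.56 in SMCs (1.07 ± 0.17, adjusted p = 0.000135, edgeR). In macrophages the muscle-type isoforms Cox7a1 and Cox6a2 were higher than in SMCs at low levels, Cox7a1 at 7.21, 7.11 and 5.68 CPM against 2.74, 1.67 and 2.48, and Cox6a2 at 3.6, 1.75 and 2.43 CPM against 1.03, 0.152 and 0.296. The Cox6a2 sums in macrophages held 3, 14 and 9 UMIs, and its call was lost without the library term (adjusted p = 0.0653, edgeR). Heart muscle genes did not move together between WT and mgR SMCs. Nppa was at 4.73 CPM in WT SMCs and 5.86 in WT fibroblasts but at 0.412 and 0.320 in mgR. Myh6, Myl7, Tnni3, Actc1 and Mb were also lower in mgR SMCs than in WT SMCs. Tnnt2, Ryr2 and Myl4 were higher there, at 206, 68.6 and 20.9 CPM against 181, 37.8 and 19.6. In fibroblasts all heart muscle genes of the list but Tnnt2 were lower in mgR than in WT. Myl4 was at 8.17 CPM in WT and 4.34 in mgR fibroblasts, Myl7 at 5.37 and 1.64, and Tnnt2 at 34.4 and 45.3. The 9 heart muscle genes summed to 270, 299 and 335 CPM in SMCs, where Tnnt2 and Ryr2 supplied most. The 7 adipocyte genes summed to 0.812 to 25.6 CPM over the 12 sums, highest in SMCs, where Cidea supplied 14.1 to 25 CPM, and Adipoq, Plin1, Cidec and Lep were each below 1 CPM. Car3, also on that list, went the other way. It was at 11.0, 6.80 and 15.4 CPM in WT, mgR and mgR-LOS fibroblasts against 0.0596, 0.217 and 0.384 in SMCs. The part of other cells' RNA in these low values was not tested.

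**Figure D3:**
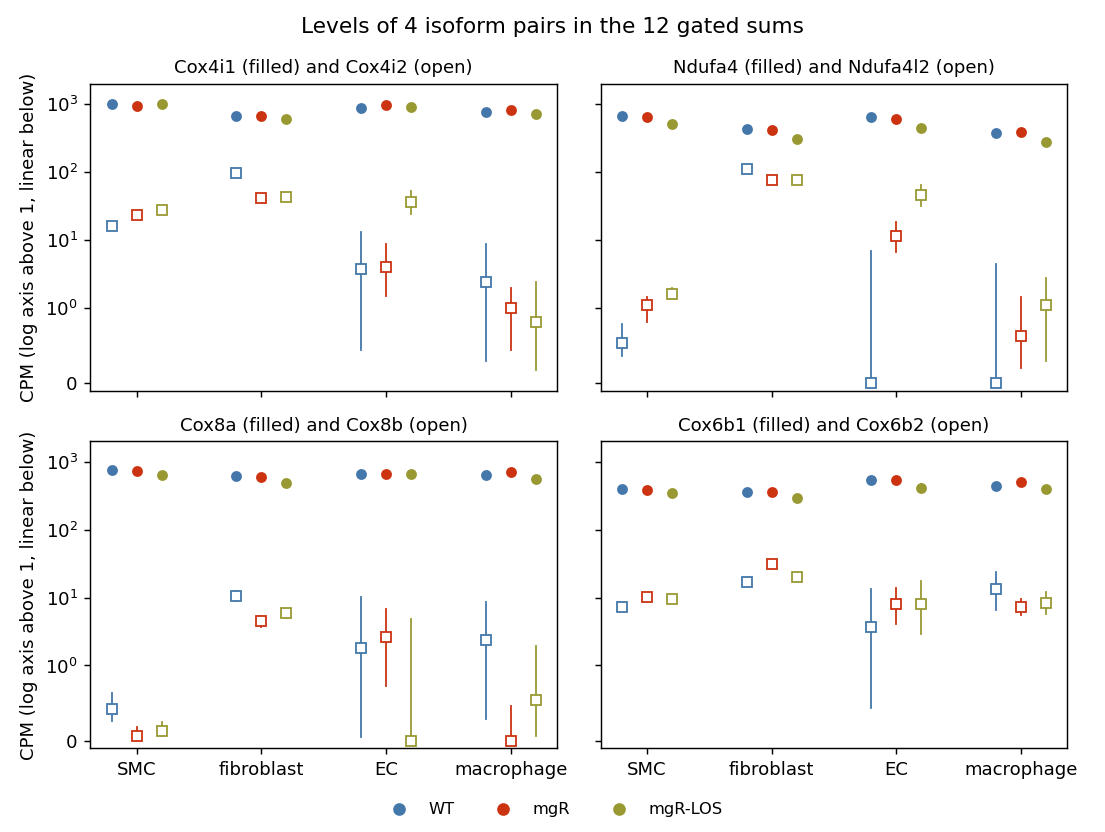
CPM in each class (x axis) and library (color) for 4 pairs of a widely used subunit (filled circles) and its restricted paralog (open squares), with exact 95% Poisson intervals; the y axis is logarithmic above 1 CPM and linear below. Ndufa4l2 reaches 75 to 109 CPM in fibroblasts and stays at or below 1.61 CPM in SMCs and macrophages, whereas Ndufa4 is present in every class.

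Within fibroblasts the restricted isoforms were detected in a minority of barcodes. After thinning each barcode to 1000 UMIs, Ndufa4l2 was found in 11.8% of 1270 WT, 7.14% of 2227 mgR and 7.80% of 2883 mgR-LOS fibroblast barcodes, with exact binomial intervals of 10.1% to 13.7%, 6.10% to 8.29% and 6.85% to 8.84%. In macrophages, taken as a measure of free RNA, 0 of 87, 1 of 911 and 0 of 525 thinned barcodes had a UMI. For 0 of 87 the exact binomial interval reaches up to 4.15%. Unthinned, the fibroblast shares were 40.0%, 34.8% and 29.9%, at median depths of 11514.5, 12324 and 8189 UMIs, against 0 of 87, 4 of 911 and 4 of 525 macrophage barcodes, at median depths of 9091, 8334 and 6451 UMIs. Cox4i2 was found in 6.14%, 3.64% and 3.99% of the thinned fibroblast barcodes. Unthinned WT fibroblasts with a Ndufa4l2 UMI carried Cox4i2 in 17.3% of 508 barcodes (14.1% to 20.9%), those without it in 35.4% of 762 (32.0% to 38.9%), at median depths of 10457 and 12312.5 UMIs. In mgR the shares were 15.2% and 18.9%, with intervals that overlapped, and in mgR-LOS 14.3% and 18.6%. Thinned to 2000 UMIs, they were 4.35% and 11.6% in WT, 4.0% and 6.45% in mgR and 7.63% and 6.43% in mgR-LOS, so a lower share beside Ndufa4l2 was seen beyond the intervals at equal depth in WT.

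In ECs Ndufa4l2 rested on few barcodes that also carried pericyte genes. It was absent from the 74 WT EC barcodes and present in 5 of 184 in mgR and 8 of 105 in mgR-LOS, which gave 0, 11.3 and 45.2 CPM. All 8 mgR-LOS barcodes carried Cox4i2 and at least 1 UMI of the pericyte list Rgs5, Kcnj8, Abcc9, Higd1b and Vtn, and they held 374 of the 430 UMIs of that list in the EC gate. Of the 5 mgR barcodes, 4 carried the list, with 275 of 382 UMIs. The list summed to 32.8, 253 and 572 CPM in the EC gates, against 79.3 to 211 in SMCs, 268 to 330 in fibroblasts and 2.40 to 20.7 in macrophages. The EC call of Ndufa4l2 (3.63 ± 0.85, adjusted p = 0.00983, edgeR) was lost without the mgR library (adjusted p = 0.0996) or without mgR-LOS (0.0686). Cox8b in ECs (2.92, adjusted p = 0.0457, edgeR) had 1, 4 and 0 UMIs, and its call was lost without the same libraries, with an adjusted p of 0.651 and 0.0685.

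Other genes of mitochondrial energy metabolism gave the setting for these differences. The 13 mitochondrially encoded subunits were all lower in fibroblasts and in macrophages than in SMCs, and 12 of 13 in ECs, with medians of -0.98, -0.92 and -0.96. Their share of UMIs was 6.29%, 5.74% and 5.42% in SMCs and 3.74%, 3.42% and 3.32% in fibroblasts, after barcodes above 10% had been removed. Of 17 citric acid cycle genes 14 were lower in fibroblasts, 14 in ECs and 11 in macrophages, where 1 was higher, with medians of -0.64, -0.62 and -0.54. Of 16 glycolysis genes 13, 13 and 11 were lower, and 1 was higher in fibroblasts, with medians of -0.93, -1.01 and -0.74. Of 14 complex I assembly factors 3, 4 and 8 were lower and 1 was higher in macrophages, and medians of -0.24, -0.26 and -0.53. Of 27 assembly factors of complexes III, IV and V, 10, 10 and 13 were lower and 2, 4 and 5 higher. Of 12 mitochondrial ribosomal proteins 8, 5 and 6 were lower and 1 was higher in macrophages, and of 12 transcriptional regulators of mitochondria 4, 2 and 3 were lower and 2 were higher in macrophages. Of 13 mitochondrial carriers 9, 9 and 4 were lower and 1, 1 and 2 higher. Of 13 hypoxia response genes 7, 5 and 11 were lower and 4, 3 and 2 higher. With TMM factors 25.8%, 25.5% and 36.4% of all genes were lower in fibroblasts, ECs and macrophages, and 27.6%, 19.1% and 30.6% higher. On plain shares 6 citric acid cycle genes were lower in ECs and 1 higher, and 11 glycolysis genes were lower and 2 higher. The mitochondrially encoded subunits gave 12 and 1 there, mitochondrial ribosomal proteins 0 and 3, and regulators 0 and 5. In fibroblasts on that scale 0 complex I assembly factors were lower and 0 higher. Those of complexes III, IV and V gave 4 and 5, and mitochondrial ribosomal proteins 3 and 1.

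The mgR and WT libraries addressed the effect of fibrillin-1 deficiency in gated cells. Barcodes that met no gate, 7.91% of those passing in WT, 22.3% in mgR and 13.2% in mgR-LOS, were left out of both library comparisons. The SMC gate limits fibroblast genes such as Dcn and Lum, and the EC gate limits SMC genes. The paper reports cells with such mixed markers (SMC3 and EC4) in mgR aortas only. How many of them the gates left out was not tested. With 1 library per condition no test was possible, and ratios of CPM are given with exact conditional binomial 95% intervals. A member was counted when it had at least 20 CPM in either library and a ratio of at most 0.8 or, upward, the same fold. In SMCs 74 of 80 members had a ratio below 1, by a small amount. Their median ratio was 0.929 against 0.988 for all genes, of which 53.6% were below 1. The summed level ratio was 0.935 (0.932 to 0.937), and the mitochondrially encoded subunits gave 0.912 and the ribosomal proteins 0.897. Past the fold lay 1 higher and 1 lower member, where 11.0% and 9.11% of all genes did. In fibroblasts 63 of 82 were below 1, the summed ratio was 0.947 (0.942 to 0.951), and 1 member was higher and 2 were lower, with 14.8% and 9.39% of all genes.

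Few single members stood out between mgR and WT in these classes. Cox4i2 was lower in mgR fibroblasts, with a ratio of 0.427 (0.395 to 0.461), and higher in mgR SMCs, with 1.46 (1.33 to 1.60). Ndufa4l2 was also lower in mgR fibroblasts (0.700, 0.655 to 0.747), and Cox6b2 was higher (1.83, 1.59 to 2.12). The part of a changed mixture of fibroblasts in these ratios was not tested. Among members at 50 CPM or more in SMCs, Ndufv3, an accessory subunit next to the NADH site, had the lowest ratio (255 to 185 CPM, 0.726, 0.706 to 0.746), followed by Ndufb9 (0.840) and Ndufa6 (0.857). Ndufa11 had the highest (293 to 365 CPM, with an interval of 1.22 to 1.27 and just short of the fold), ahead of Atp5g1 (1.03) and Ndufb6 (1.01). In fibroblasts Ndufs7 (0.813) came after Cox4i2 and Ndufa4l2 at the low end, and Ndufa3 (1.14), Atp5mpl (1.13) and Atp5g3 (1.09) were at the high end.

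In ECs and macrophages more members lay above 1 than below, and so did all genes, of which 42.9% and 41.4% were below 1. The median ratio in ECs was 1.02 for the members and 1.05 for all genes. In macrophages these medians were 1.07 and 1.05. In ECs 47 of 80 ratios were above 1, with a summed ratio of 1.01 (0.992 to 1.03) that spanned 1, and 5 members were higher and 1 lower where 28.2% and 17.8% of all genes passed the fold. Sdhc (1.74, 1.15 to 2.72) and Ndufa10 (1.54, 1.04 to 2.33) were at the high end with Sdhaf4 (1.3, 0.835 to 2.10), and Sdhaf2 (0.728), Cox7a2 (0.810) and Uqcrc2 (0.838) at the low end. In macrophages 56 of 79 were above 1, the summed ratio was 1.09 (1.07 to 1.11), and 7 were higher and 1 lower where 22.8% and 13.4% of all genes passed. Complex V had the largest summed ratio there, 1.14 (1.11 to 1.18). Ndufs8 (1.44, 1.07 to 1.98), Cox7b (1.42, 1.22 to 1.67) and Sdhc (1.38, 1.01 to 1.93) were highest and Uqcrfs1 (0.683, 0.543 to 0.867), Ndufa9 (0.839) and Ndufa8 (0.842) lowest. The WT macrophage sum came from 87 barcodes. In all 4 gates the share of members past the fold was below that of all genes.

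**Figure D4:**
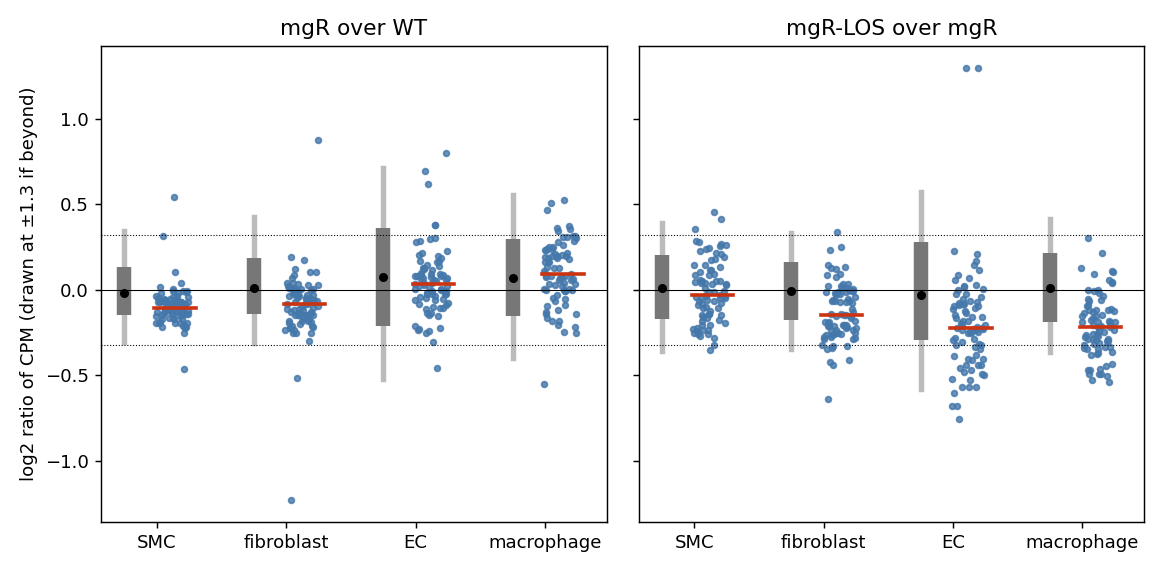
Log2 ratio of CPM between libraries for the members at 20 CPM or more (points, with their median as a bar) beside all genes at that level (dark bar, quartiles; light bar, 10th to 90th percentile; black dot, median), by gate; dotted lines mark a ratio of 0.8 and the same fold upward. The members sit near 0 in the mgR over WT panel and below 0 in fibroblasts, ECs and macrophages in the mgR-LOS over mgR panel.

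The mgR-LOS and mgR libraries addressed the effect of losartan on the mutant aorta. Over all gated barcodes the members were lower in the mgR-LOS library in ECs, macrophages and fibroblasts, and nearly level in SMCs. The summed ratio was 0.866 (0.850 to 0.883) in ECs, 0.846 (0.838 to 0.854) in macrophages, 0.897 (0.893 to 0.900) in fibroblasts and 0.974 (0.972 to 0.977) in SMCs. Within SMC barcodes of 5000 to 10000 UMIs, a range chosen after seeing the data, it was 0.921, so the SMC value depended on depth. Ratios below 1 were found for 68 of 82 members in ECs, 68 of 79 in macrophages, 64 of 82 in fibroblasts and 44 of 80 in SMCs, against 51.8%, 48.7%, 51.5% and 48.4% of all genes. Past the fold, 25 were lower and 2 higher in ECs, where 22.8% of all genes were lower and 22.4% higher. The 2 higher were Cox4i2 (9.03, 3.65 to 26.7) and Ndufa4l2 (4.01, 2.18 to 7.66). All 8 mgR-LOS EC barcodes with Ndufa4l2 also carried Cox4i2 and UMIs of the pericyte list. In macrophages 21 were lower and 0 higher, where 12.7% and 15.4% of all genes were. In fibroblasts 8 were lower and 1 higher, against 11.4% and 10.7%, and in SMCs 2 and 3, against 11.9% and 13.8%. The members' share past the lower limit was 26.6% in macrophages, 30.5% in ECs, 9.76% in fibroblasts and 2.5% in SMCs. In macrophages it stood above that of all genes under 11 of 12 settings, all but a fold of 1.5. In ECs it did so under 9 of 12, and not with a gene minimum of 200, where 18.3% of the members and 18.5% of all genes were lower.

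Complex IV had the lowest summed ratio of mgR-LOS to mgR in ECs (0.831), macrophages (0.803), fibroblasts (0.855) and SMCs (0.941). Its interval overlapped that of complex III in every gate. In ECs they were 0.801 to 0.863 and 0.793 to 0.894, and in macrophages 0.789 to 0.818 and 0.816 to 0.868. In fibroblasts they were 0.848 to 0.862 and 0.861 to 0.885, and in SMCs 0.936 to 0.945 and 0.939 to 0.954. The complex IV interval in ECs also overlapped those of complexes I (0.856 to 0.918), II (0.718 to 0.979) and V (0.849 to 0.914). By the median ratio of its members complex III was lower than complex IV in ECs, at 0.774 and 0.801. In macrophages 7 of the 11 complex IV members at 20 CPM were past the fold. The complex IV sums include Ndufa4, whose own ratio lay below that of complex IV in every gate. The ranking of the complexes without Ndufa4 was not computed. Of the 79 members at 20 CPM in all 4 gates, 42 (53.2%) had a ratio below 1 in every gate, against 22.5% of all genes, and 2, Atp5k and Ndufa6, had a ratio above 1 in every gate. Ndufa4 was the one member past 0.8 in all 4 gates, which is 1.27% of the 79, against 1.48% of all genes. It was at 644 and 504 CPM in mgR and mgR-LOS SMCs (0.783, 0.771 to 0.795), at 420 and 310 in fibroblasts (0.738, 0.717 to 0.760), at 609 and 443 in ECs (0.728, 0.640 to 0.826) and at 394 and 271 in macrophages (0.689, 0.641 to 0.740). WT levels were 664, 433, 634 and 369 CPM, close to those of mgR.

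Atp5k, a membrane subunit of the ATP synthase, had the opposite pattern, at 303 and 416 CPM in mgR and mgR-LOS SMCs (1.37, 1.34 to 1.40) and 201 and 254 in fibroblasts (1.26, 1.22 to 1.31). Its ratios were 1.16 in ECs (0.975 to 1.37) and 1.16 in macrophages (lower bound 1.07). Ndufa6 was at 265 and 354 CPM in SMCs (1.34, 1.31 to 1.36), with ratios of 1.09, 1.11 and 1.09 in fibroblasts, ECs and macrophages. Ndufa10 was higher in SMCs (1.28), fibroblasts (1.17) and macrophages (1.23) and lower in ECs (0.624, 0.431 to 0.888). The SMC values of Atp5k, Ndufa6 and Ndufa10 depended on depth. Within SMC barcodes of 5000 to 10000 UMIs, 0 members passed the fold upward. Below Ndufa4 in rank were Ndufa11 (0.799) and Sdhd (0.823) in SMCs, Uqcrq (0.748) and Ndufab1 (0.753) in fibroblasts, and Ndufab1 (0.694) and Cox7a2 (0.705) in macrophages. In ECs the lowest were Atp5g3 (0.593), Ndufa10 and Sdhaf4 (0.626), and the highest at 50 CPM or more were Ndufb8 (1.17), Atp5k and Atp5g2 (1.12). Uqcrc1 (1.19) stood between Atp5k and Ndufa10 at the high end in fibroblasts.

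Other transcripts and library properties moved with this comparison. Ribosomal proteins had summed ratios of 1.16 in SMCs, 0.988 in fibroblasts, 0.991 in ECs and 0.936 in macrophages, and the mitochondrially encoded subunits 0.945, 0.970, 1.07 and 0.927. The mgR-LOS matrix header names Cell Ranger 6.0.1 and those of mgR and WT name 5.0.1, so that losartan, software version, pool and depth cannot be told apart. The member share of a barcode varied with depth. In fibroblasts its median was 2.90%, 2.56% and 2.05% below 5000 UMIs and 1.95%, 1.86% and 1.58% from 5000 to 10000 UMIs in WT, mgR and mgR-LOS. Within barcodes of 5000 to 10000 UMIs, a comparison added after the depths had been seen, 17 of 83 members (20.5%) were lower and 2 higher in mgR-LOS than in mgR fibroblasts, where 13.8% of all genes were lower and 11.7% higher. In SMCs 9 of 81 (11.1%) were lower and 0 higher, against 14.5% and 12.8% of all genes, and the summed ratio was 0.921. In ECs 29.3% of the members and 30.3% of all genes were lower, and in macrophages 26.6% and 13.8%. In the same range SMCs of WT, mgR and mgR-LOS had medians of 2.37%, 2.5% and 2.29%, and the median log2 ratio of the members between mgR and WT SMCs was 0.02 in place of -0.11.

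**Figure D5:**
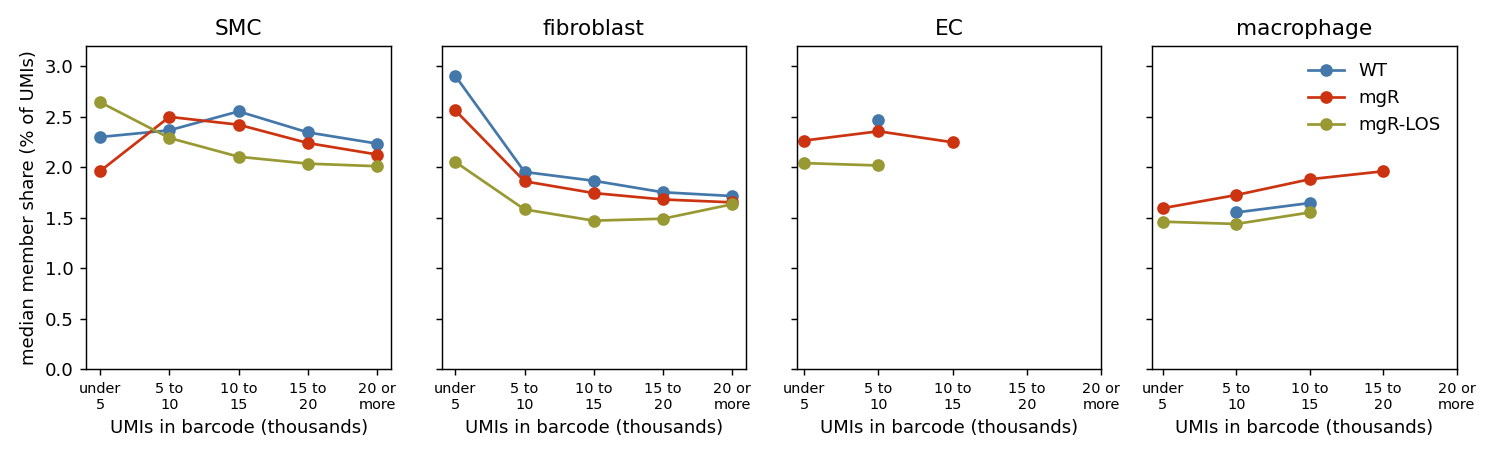
Median percentage of UMIs from the 89 members (y axis) over barcodes grouped by total UMIs (x axis, in units of 1000), for each gate and library; groups under 20 barcodes are left out. The mgR-LOS line lies below the mgR line in fibroblasts, ECs and macrophages wherever both are drawn, and in SMCs from 5000 UMIs upward.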

How the data were processed

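Ascending aortas were digested and single cells were captured in droplets (10x Genomics, 3' chemistry), 1 library per condition. The authors aligned the reads to mm10 and counted UMIs per gene and barcode, and the counts were used as deposited. The matrix headers name Cell Ranger 5.0.1 for WT and mgR and 6.0.1 for mgR-LOS, whereas the labels name 6.0.1 for all 3. Limits of 600 and 5000 detected genes and of 10% UMIs from the mitochondrial genome, as in the study's methods, left 5361 of 7858 (WT), 8076 of 10657 (mgR) and 12721 of 14663 (mgR-LOS). Gates required at least 100 (SMC), 20 (fibroblast), 15 (EC) or 40 (macrophage) panel UMIs per 10000 and at most 50, 10, 5 and 5 of the other panels. No doublet caller was run, and 424, 1799 and 1682 barcodes met no gate.

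Counts were summed per gate and library. Classes were compared with edgeR 4.0.16 in R 4.3.3 (quasi-likelihood test, library and class as terms, TMM, Benjamini-Hochberg over all 14907 genes, threshold 0.05), after the script had been tested on simulated data. Libraries were compared by ratios of CPM with exact conditional binomial 95% intervals, which cover counting error only. Both library comparisons use the mgR library. Coordinates are from GENCODE release 21 on GRCm38 and promoters from RefSeq on GRCm38.p6. DESeq2 1.42.0, other scalings, filters, gates and thinning were tried as alternatives. The members and gene lists were chosen with earlier results of these data known. Named were restricted isoforms, core subunits and, per comparison, the 3 highest and 3 lowest members at 50 CPM or more.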

Additional observations from a re-analysis of the deposited data

Results flagged for a closer look

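The summed level of the members moved to opposite sides between mgR and WT in separate cell classes. In SMCs the ratio was 0.935 and in macrophages 1.09. This was not particular to the members. The summed ratio of the ribosomal proteins was 0.897 in SMCs and 1.05 in macrophages, and the median ratio of all genes 0.988 and 1.05. Each condition had 1 library, so the difference between the classes was not tested. Within barcodes of 5000 to 10000 UMIs the ratios were 1.01 and 1.09, so the SMC value did not stay below 1. The WT macrophage sum came from 87 barcodes.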

How the results depend on the processing

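The largest dependence was on scaling in ECs: on plain shares of all UMIs, chosen after seeing the data, 36 members in place of 66 were called and 22 in place of 64 were lower. On that scale the log2 difference turned from negative to positive for 27 of 87 members in ECs, 5 in fibroblasts and 3 in macrophages. Of the 27, 17 had been called lower, and 5 were called higher. Those that turned included Atp5b (0.15), Atp5g2 (0.26), Atp5o (0.12), Cox5a (0.39), Cox5b (0.18), Cox6b1 (0.41), Cox7a2 (0.069), Sdha (0.46), Sdhb (0.045), Sdhd (0.36) and Uqcrfs1 (0.016) in ECs and Atp5o in fibroblasts (0.0026). Leaving out 1 library gave 64 to 75 calls and 60 to 71 lower members in fibroblasts, 45 to 64 and 45 to 62 in ECs, and 55 to 62 and 52 to 59 in macrophages. The labels give no replicate numbers shared between groups; without the library as a replicate block 69, 56 and 59 members were called in fibroblasts, ECs and macrophages, against 80, 66 and 63 with it.

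Counts past a fold between libraries moved with the limits. Between mgR and WT, where 2, 3, 6 and 8 members passed in SMCs, fibroblasts, ECs and macrophages, a fold of 1.5 left 0 in SMCs, 3 in ECs and 0 in macrophages, and a floor of 100 CPM left 1, 1, 0 and 5. A mitochondrial limit of 5% gave 4 in SMCs and 10 in ECs. Thinning to 2000 UMIs gave 6 in fibroblasts, 20 in ECs and 25 in macrophages. Equal weight per barcode gave 5 in fibroblasts and 12 in ECs, and centring on all genes gave 5 in macrophages. Barcodes of 5000 to 10000 UMIs, chosen after seeing the data, gave 4, 5, 12 and 17. Between mgR-LOS and mgR, where 5, 9, 27 and 21 passed, a fold of 1.5 left 0, 1, 6 and 0, the same depth range gave 9 in SMCs and 19 in fibroblasts, and a gene minimum of 200 gave 17 in ECs. The cause was not tested. The members' share of lower values in mgR-LOS changed side against that of all genes in ECs with a fold of 1.5, the gene minimum or the depth range, in fibroblasts with the depth range and in macrophages with a fold of 1.5. The median log2 ratio stayed below 0 in fibroblasts, ECs and macrophages under every alternative run for mgR-LOS against mgR.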
